A study of Mus musculus with 12 samples.

Results

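The question was which genes answered lipopolysaccharide (LPS) differently in macrophages with and without RasGEF1b. All 12 libraries of 12 in the series entered the comparison, 3 in each of 4 groups. For each gene, the LPS response of the wild-type (WT) cells was subtracted from that of the knockout cells, on the log2(normalized count + 1) scale. This quantity is called the interaction estimate here. A positive value means that transcripts rose more, or fell less, with LPS in the knockout cells.

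The cells were bone-marrow-derived macrophages (BMDMs) from C57BL/6 mice aged 8 to 12 weeks, either wildtype or Rasgef1b-fl/fl;CMVcre (KO below). Cells of each genotype were left untreated or received 100 ng/ml LPS of Escherichia coli O55:B5 for 4 h. The CMV-Cre transgene deletes the floxed exons in all tissues, so the deletion was present before the macrophages differentiated. The WT mice came from an animal facility colony, so that genotype and colony cannot be told apart.

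LPS is recognised by TLR4, which signals through MyD88 to NF-kB and MAP kinases and through TRIF to IRF3 and interferon beta. The interferon in turn induces a second layer of antiviral genes, while the earlier layer holds most cytokines and chemokines. RasGEF1b is a guanine nucleotide exchange factor for the GTPase Rap2 whose gene is itself induced by LPS in macrophages.

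Library depth ranged from 19316691 to 24977356 reads in genes, and 1 read was worth 0.660 to 1.41 normalized counts. The 7 macrophage markers searched, among them Adgre1, Csf1r and Lyz2, were all abundant, and their summed level was 256386 to 317241 normalized counts in untreated WT, 210285 to 262668 in untreated KO, 314337 to 363940 in LPS-treated WT and 250707 to 314017 in LPS-treated KO cells. The LPS-treated genotypes did not overlap. Lyz2, the most abundant of the 7, averaged 172023 normalized counts, and the median genotype difference of the 7 genes after LPS was -0.06. Of 7 T cell markers, the defining Cd3d, Cd3e, Cd3g and Trac had 0 to 5 reads over all libraries. The summed level of the 7, carried by Lck and Cd4, was 171 to 249 normalized counts in untreated WT, 111 to 144 in untreated KO, 1175 to 1521 in LPS-treated WT and 774 to 1191 in LPS-treated KO cells. The summed level of 10 neutrophil markers was 885 to 1211 normalized counts in untreated WT and 741 to 997 in untreated KO cells. After LPS it was 902 to 1258 in WT and 808 to 1695 in KO cells. Of the 10, Ly6g, Elane, Mpo and Retnlg were each at most 8.55 normalized counts in every library. The other members, S100a8, S100a9, Ngp, Camp, Ltf and Mmp8, reached 306, 444, 358, 30.2, 108 and 650. All 6 tested members had an interaction estimate above 0, against 6708 of all 12711 genes. Their median was 0.27, and none passed after adjustment by limma. Ighm was the highest of 6 B cell markers. Their summed level was 264 to 1152 normalized counts in untreated WT and 577 to 729 in untreated KO cells. After LPS it was 217 to 517 in WT and 306 to 427 in KO cells. Of 7 dendritic cell markers, Itgax averaged 4005 normalized counts and the others at most 34.5. The part of these marker levels in the results was not tested, and in bulk RNA fewer cells of a type and less RNA per cell cannot be told apart. In the untreated KO replicate 2 library, 5.06% of reads fell in CT010467.1, a ribosomal RNA model that took 0.0398% to 0.0874% in the other 11.

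Rasgef1b itself was read first. Its normalized counts were 2171, 2001 and 2043 in untreated WT, 695, 545 and 587 in untreated KO, 12554, 11854 and 11844 in LPS-treated WT, and 3775, 4192 and 3618 in LPS-treated KO libraries. Within each state, all KO libraries were below all WT libraries. The gene count covers every exon and the transgene removes only part of them, so reads can remain in the KO. Which exons the remaining reads fell in was not tested. LPS raised the remaining transcript 6.35-fold in KO cells and the full one 5.83-fold in WT cells. The interaction estimate was 0.12 (SE 0.12, 95% confidence interval -0.13 to 0.38), and limma gave an adjusted p of 0.999.

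Across 12711 genes tested, 1 had an LPS response that depended on genotype at an adjusted p below 0.05, which is 0.00787% of the genes. It was Ccl4, which encodes the chemokine MIP-1 beta, and its response was higher in KO cells. By limma, 0 genes were called in the other direction. At an unadjusted p of 0.05, 537 genes passed (4.22%), 297 with a higher (2.34%) and 240 with a lower response in KO cells (1.89%). edgeR on the recovered reads also called Ccl4 alone. When untreated and LPS-treated libraries of the same replicate number were paired within each genotype, limma called 6 genes (0.0472%), namely Ccl4, Ccl3, Cp, Ifit1bl1 and Vcam1 with a higher (0.0393%) and Nos2 with a lower response in KO cells (0.00787%). DESeq2 called 24 of the 11464 genes to which it gave an adjusted p (0.209%), of which 18 had a higher (0.157%) and 6 a lower response in KO cells (0.0523%).

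**Figure D1:**
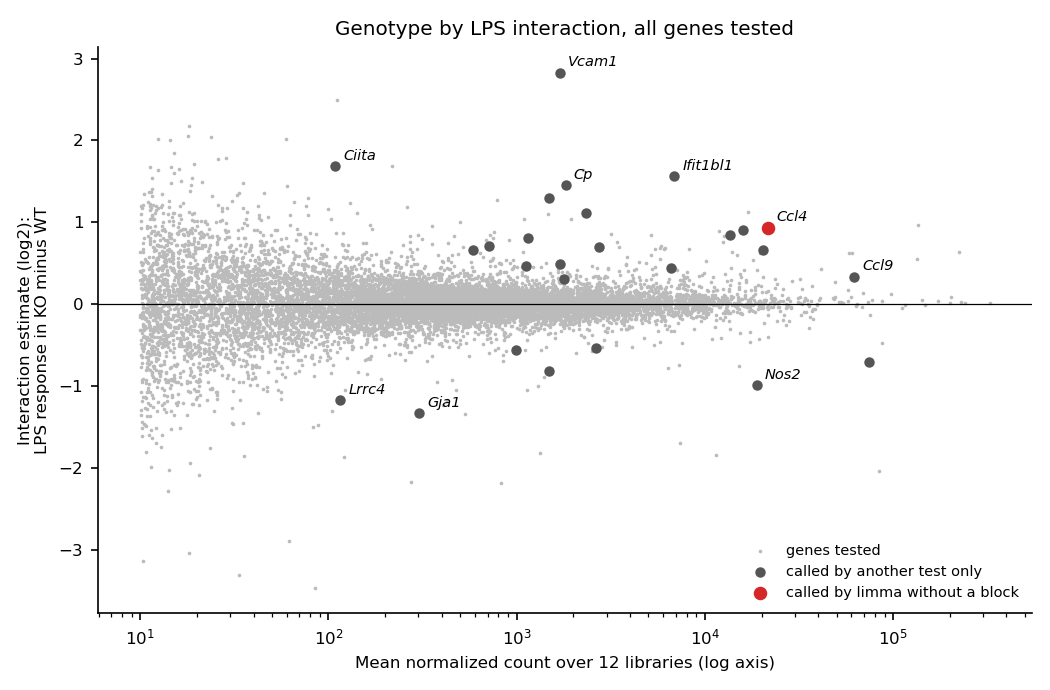
Interaction estimate (log2, LPS response in KO minus WT) of each gene tested, against its mean normalized count over 12 libraries on a log axis. The red point is Ccl4 at 0.93, dark points are genes that another test called, and the spread of the remaining genes narrows as the mean rises.

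Ccl4 lies on mouse chromosome 11 (chr11:83662584-83664683, GRCm38, plus strand). Its normalized counts were 1142, 1248 and 1202 in untreated WT and 642, 605 and 571 in untreated KO libraries. After LPS they were 43449, 43074 and 42068 in WT and 41246, 40434 and 42622 in KO libraries. All untreated KO libraries were below all untreated WT libraries, whereas the LPS-treated libraries overlapped. The transcript rose 35.8-fold in WT and 68.4-fold in KO cells.

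The interaction estimate of Ccl4 was 0.93 (SE 0.08, 95% confidence interval 0.76 to 1.11), or a 1.91-fold larger response in KO cells, with an adjusted p of 3.69e-04 by limma. The genotype difference behind it was -0.98 (SE 0.06, adjusted p = 9.76e-07 by limma) in untreated cells and -0.05 (SE 0.06, adjusted p = 0.778) after LPS. Every KO culture responded more than every WT culture, with responses of 6.00, 6.06 and 6.22 against 5.25, 5.11 and 5.13 on the log2 scale. A single exact permutation test of 3 cultures against 3 cannot give a p below 0.1.

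**Figure D2:**
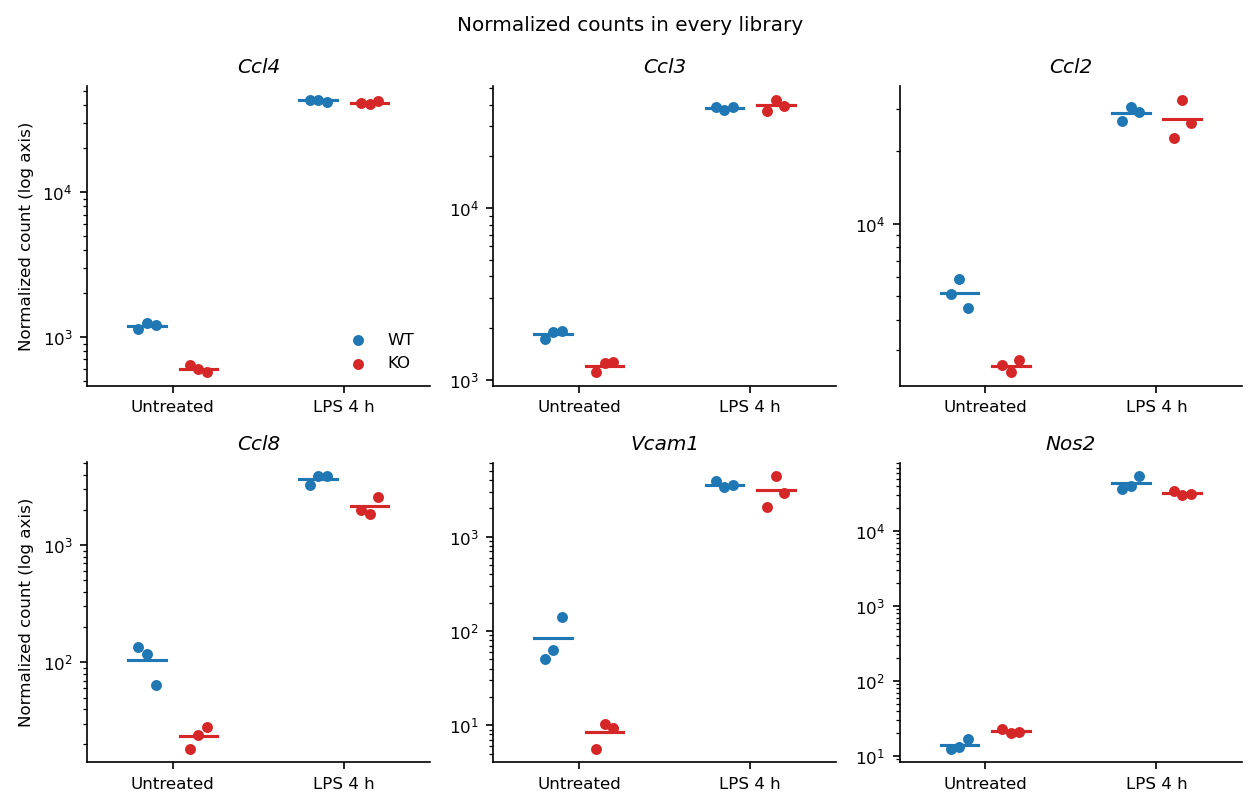
Normalized counts (log axis) of 6 genes in each of the 12 libraries, WT in blue and KO in red, with a bar at each group mean. For Ccl4, Ccl3, Ccl2, Ccl8 and Vcam1 the genotypes lie apart when untreated, and after LPS they overlap for Ccl4, Ccl3, Ccl2 and Vcam1.

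Most of the other CC chemokine genes, which encode attractants of monocytes, T cells and other leukocytes, had estimates in the same direction. Of 12 members tested, 11 had an estimate above 0, against 6708 of all 12711 genes. The median was 0.85 against 0.01 over all genes. An unadjusted p of 0.05 was passed by 8 members, all with a higher response in KO cells (66.7% against 2.34% of all genes). Only Ccl4 passed after adjustment by limma. The responses of KO cultures all lay above those of WT cultures for 10 of the 12, against 6.99% of all genes, and below them for none, against 5.55%. Ccl17, 1 of the 10, had 1 read in the 6 untreated libraries. Its fitted response and its place among the 10 therefore rest on that read and the pseudocount. Without Ccl17 the median remained 0.85.

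Ccl3 encodes MIP-1 alpha and neighbours Ccl4. Its normalized counts were 1731, 1893 and 1911 in untreated WT, 1103, 1248 and 1259 in untreated KO, 38698, 37012 and 38949 in LPS-treated WT, and 36949, 42762 and 39124 in LPS-treated KO libraries. The untreated groups did not overlap and the LPS-treated groups did. The estimate was 0.67 (SE 0.10), with an adjusted p of 0.102 by limma, 0.00887 with cultures paired, 0.166 by edgeR and 2.77e-06 by DESeq2.

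Ccl2, Ccl7, Ccl12 and Ccl8 encode the monocyte chemoattractants and fill a stretch of 81.2 kb on chromosome 11 (chr11:82035571-82116799, GRCm38). All 4 were called by DESeq2 and by none of the other tests. Ccl2 read 5109, 5912 and 4482 normalized counts in untreated WT and 2608, 2424 and 2718 in untreated KO libraries. After LPS it read 26517, 30347 and 28979 in WT and 22639, 32654 and 26150 in KO libraries. As with Ccl4, the genotypes were apart before LPS and overlapped after it, and the estimate was 0.90 (SE 0.17, adjusted p = 0.244 by limma and 0.00117 by DESeq2).

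Ccl8 differed from this pattern in that the groups stayed apart. It read 134, 118 and 63.7 normalized counts in untreated WT and 18.3, 23.9 and 27.9 in untreated KO libraries, then 3289, 3855 and 3881 in WT and 2008, 1851 and 2596 in KO libraries after LPS. The difference between genotypes was -2.07 untreated and -0.78 after LPS, which gave an estimate of 1.29 (SE 0.33, adjusted p = 0.651 by limma and 0.00651 by DESeq2). Ccl12 had an estimate of 1.11 (SE 0.26) and Ccl7 one of 0.85 (SE 0.20), with adjusted p of 0.491 and 0.529 by limma and of 0.00626 and 0.0243 by DESeq2.

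In untreated cells 106 genes differed between genotypes by limma (0.834%). Of the 12 CC chemokine genes 7 were called lower in KO, where 0.401% of all genes were. After LPS 117 genes were called (0.92%), 0.574% of all genes higher and 0.346% lower in KO cells, and none of the 12 was among them. The median difference between genotypes was -0.80 when untreated and -0.08 after LPS. Ccl5, a chemokine of the interferon-dependent layer, went from a mean of 58.7 to 54594 normalized counts in WT and from 64.9 to 52448 in KO cells. Its estimate was -0.25 (95% confidence interval -0.92 to 0.41). Ccl6, which rose 1.01-fold with LPS in WT and 1.09-fold in KO cells, had an estimate of 0.12 (95% confidence interval -0.21 to 0.44).

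**Figure D3:**
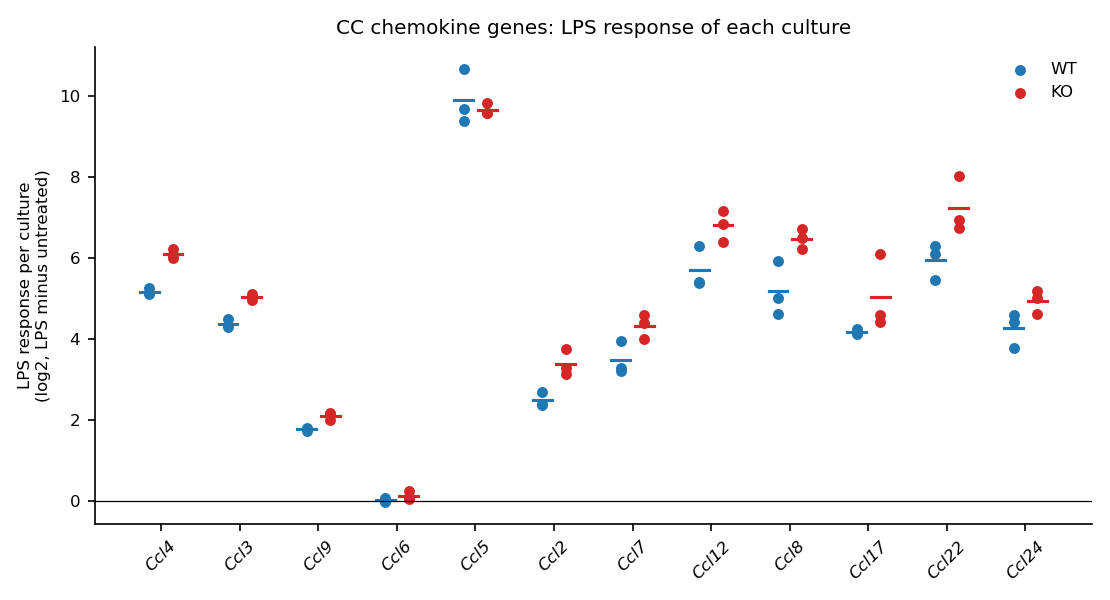
LPS response (log2, LPS minus untreated library of the same replicate number) of each of 3 WT cultures in blue and 3 KO cultures in red for 12 CC chemokine genes, with a bar at each mean. The red points lie above all blue points for each gene but Ccl5 and Ccl6. For Ccl17 this rests on 1 untreated read and the pseudocount.

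Promoters of 7 of the 12 CC chemokine genes are in the RefSeq table for GRCm38.p6. Those of 3 genes named above are shown, each as the 250 bases before the start site, because DESeq2 called their interaction and they lie in 2 neighbouring clusters. Ccl9, which DESeq2 also called, has an entry that is not shown. The promoter at 1 of 2 listed start sites of Ifit1bl1, an interferon-stimulated gene, comes last. The other site is not shown, and its motifs lie at other distances. Capitals mark the letters of 5 motifs searched.
Ccl3 (chr11:83649379-83649628, minus strand): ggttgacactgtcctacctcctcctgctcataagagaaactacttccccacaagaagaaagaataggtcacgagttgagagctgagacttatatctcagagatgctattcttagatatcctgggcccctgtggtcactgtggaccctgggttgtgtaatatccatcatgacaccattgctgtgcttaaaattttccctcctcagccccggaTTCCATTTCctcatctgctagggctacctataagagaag
Ccl8 (chr11:82114935-82115184, plus strand): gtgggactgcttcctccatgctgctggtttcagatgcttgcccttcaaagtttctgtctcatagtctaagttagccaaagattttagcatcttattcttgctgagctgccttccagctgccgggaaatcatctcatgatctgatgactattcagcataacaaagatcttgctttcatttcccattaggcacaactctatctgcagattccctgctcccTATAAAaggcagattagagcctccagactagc
Ccl12 (chr11:82101595-82101844, plus strand): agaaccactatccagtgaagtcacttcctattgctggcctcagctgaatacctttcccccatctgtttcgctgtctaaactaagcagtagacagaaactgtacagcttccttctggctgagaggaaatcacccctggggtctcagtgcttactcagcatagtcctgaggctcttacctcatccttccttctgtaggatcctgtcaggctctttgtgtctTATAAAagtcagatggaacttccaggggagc
Ifit1bl1 (chr19:34601969-34602218, minus strand): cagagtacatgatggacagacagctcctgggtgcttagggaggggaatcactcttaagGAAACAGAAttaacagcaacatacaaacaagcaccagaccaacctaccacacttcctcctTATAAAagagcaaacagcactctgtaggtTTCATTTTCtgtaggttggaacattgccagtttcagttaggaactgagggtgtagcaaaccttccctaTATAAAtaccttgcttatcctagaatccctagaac

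The motifs were GGANTTTCC for NF-kB, GAAANNGAA for the core of the interferon-stimulated response element, TGANTCA for AP-1 and TTGCGCAA for C/EBP, each on both strands, and TATAAA for the TATA box on the printed strand. These letters occur in 1.07%, 7.13%, 6.75%, 0.164% and 7.59% of 32851 promoter windows of that length. The Ccl8 and Ccl12 windows hold TATAAA from 32 and 31 bases before the start. The Ccl3 window holds the interferon response core on the reverse strand from 39 to 31 bases before the start. The letters searched for the core and NF-kB were shortened after a first search. The Ifit1bl1 window holds that core at 192 to 184 bases before the start and, on the reverse strand, at 103 to 95, and TATAAA at 2 places. When the core must end in a further A, the Ccl3 match and the Ifit1bl1 match at 192 to 184 are lost.

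Vcam1, which encodes an adhesion molecule for integrin alpha 4 beta 1 on leukocytes, had the highest estimate of all 12711 genes. It read 50.5, 62.7 and 140.2 normalized counts in untreated WT and 5.64, 10.3 and 9.31 in untreated KO libraries. In reads, it had 73, 95 and 176 in WT and 8, 12 and 13 in KO. After LPS it read 3856, 3323 and 3490 in WT and 2082, 4372 and 2922 in KO libraries. The untreated groups were apart and the LPS-treated groups overlapped. The estimate was 2.83 (SE 0.48, 95% confidence interval 1.80 to 3.86), with an adjusted p of 0.131 by limma, 0.0159 with cultures paired, 0.276 by edgeR and 0.00135 by DESeq2. With so few reads in untreated KO libraries, its size is uncertain and the paired fit may understate the spread. Icam1, another ligand of leukocyte integrins, rose from 1137 to 56484 normalized counts in WT and from 948 to 57843 in KO cells, with an estimate of 0.28 (95% confidence interval -0.01 to 0.57). Among 24 genes of adhesion and integrins the median estimate was 0.02 and no member passed after adjustment by limma.

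Ifit1bl1, a member of the Ifit family of antiviral genes, read 102, 68.6 and 79.7 normalized counts in untreated WT and 40.2, 23.9 and 27.9 in untreated KO libraries. After LPS it read 11434, 13481 and 14122 in WT and 17084, 13193 and 12836 in KO libraries. Again the genotypes were separate before LPS and overlapped after it. The estimate was 1.56 (SE 0.26), with an adjusted p of 0.127 by limma, 0.0159 with cultures paired and 2.77e-06 by DESeq2. How reads common to near-identical Ifit genes were counted was not tested, so its level is uncertain.

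Interferon-stimulated genes as a group varied between cultures. Of 46 members tested, Ifit1bl1 included, 45 had an estimate above 0, against 6708 of all 12711 genes, and the median was 0.40. Yet 2 passed an unadjusted p of 0.05, which is 4.35% against 4.22% of all genes, and none passed after adjustment by limma. Ifit3, another Ifit gene, read 2002, 688 and 370 normalized counts in untreated WT and 1163, 147 and 199 in untreated KO libraries, which overlap. After LPS its counts were 36736, 35944 and 31987 in WT and 37681, 26810 and 28910 in KO libraries. Its estimate of 1.12 had a 95% confidence interval of -0.89 to 3.14. The 95% interval lay within 1 log2 unit of 0 for 9 of the 46 genes, against 78.7% of all genes, so for most of them a 2-fold difference in response could not be told from none at this spread. The median log2 level of the 46 genes was 9.73, 8.81 and 8.49 in untreated WT libraries and 9.40, 8.09 and 8.01 in untreated KO libraries, and it was between 13.7 and 13.9 in all LPS-treated libraries. Ifnb1, the gene of interferon beta, had a mean of 56.5 normalized counts in LPS-treated WT and 57.0 in LPS-treated KO cells and was at or near 0 in untreated cells.

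Ciita encodes the coactivator that drives MHC class II genes. It read 56.7, 44.9 and 80.5 normalized counts in untreated WT, 31.7, 25.7 and 33.7 in untreated KO, 137, 128 and 117 in LPS-treated WT, and 204, 237 and 201 in LPS-treated KO libraries. KO cells were below WT cells before LPS and above them after it, with no overlap in either state. LPS raised the transcript 2.13-fold in WT and 6.89-fold in KO cells. The estimate was 1.69 (SE 0.27), with an adjusted p of 0.127 by limma, 0.105 with cultures paired and 1.54e-05 by DESeq2. The class II gene H2-Ab1 had an estimate of 0.22 (95% confidence interval -0.54 to 0.97). Among 14 genes of class II presentation and costimulation the median was 0.18 and none passed after adjustment by limma. All 19 tested genes of MHC class I presentation had an estimate above 0, against 6708 of all 12711 genes. Their median was 0.20, and none passed after adjustment by limma. H2-Q7 had the highest at 0.96 (adjusted p = 0.999 by limma). How reads common to the near-identical H2-Q genes were counted was not tested, so its level is uncertain.

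Cp encodes ceruloplasmin, the copper-carrying ferroxidase of plasma. It read 44.3, 41.6 and 78.9 normalized counts in untreated WT and 14.8, 16.2 and 17.2 in untreated KO libraries. In reads, it had 64, 63 and 99 in WT and 21, 19 and 24 in KO. After LPS it read 3127, 3046 and 5543 in WT and 3438, 2776 and 3664 in KO libraries. In WT replicate 3 both states were high, so the responses of the WT cultures were close, at 6.11, 6.16 and 6.12, against 7.76, 7.33 and 7.65 in KO cultures. The estimate was 1.45 in both models, with an adjusted p of 0.529 by limma without pairing and 0.00267 with it. The adjusted p was 0.401 by DESeq2 and above 0.99 by edgeR, so neither called it. With so few reads in untreated KO libraries, the paired fit may understate the spread.

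Nos2, which encodes inducible nitric oxide synthase, was called with a smaller response in KO cells by the paired limma fit alone. It read 12.5, 13.2 and 16.7 normalized counts in untreated WT and 22.6, 20.5 and 20.8 in untreated KO libraries. In reads, it had 18, 20 and 21 in WT and 32, 24 and 29 in KO. After LPS it read 36177, 39850 and 53922 in WT and 34087, 30509 and 31314 in KO libraries. KO cells were above WT cells before LPS and below them after it, with no overlap in either state. Responses were 11.4, 11.5 and 11.6 in WT cultures and 10.5, 10.5 and 10.5 in KO cultures on the log2 scale. The estimate was -0.99, with a standard error of 0.19 and an adjusted p of 0.244 by limma without pairing, and a standard error of 0.08 and an adjusted p of 0.00161 with it. edgeR gave 0.525 and DESeq2 0.27. At so few untreated reads, the paired standard error may understate the spread.

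Acod1, which encodes the itaconate-making enzyme, had a response of 11.1 in WT and 10.4 in KO cells on the log2 scale. Untreated libraries read 62.3, 70.0 and 71.7 normalized counts in WT and 120, 121 and 95.2 in KO, which do not overlap. LPS-treated libraries overlapped, with group means of 149293 in WT and 149527 in KO cells. The estimate was -0.70 (SE 0.15, adjusted p = 0.288 by limma and 0.0297 by DESeq2). The other 12 genes of nitric oxide, arginine and itaconate metabolism had adjusted p of 0.999 by limma, and the median of the 14 was -0.01.

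Taking the 4 tests together, 26 genes were called by at least 1 of them, 19 with a higher and 7 with a lower response in KO cells. Ccl4 was called by all 4, Ccl3, Ifit1bl1 and Vcam1 by the paired limma fit and DESeq2, and 22 genes by 1 test. These genes were chosen by the interaction, so what follows describes them and tests nothing. Among the 19, limma called 11 lower in untreated KO cells and none of those 11 after LPS. They were Vcam1, Ciita, Ifit1bl1, Cp, Ccl2, Ccl3, Ccl4, Ccl7, Ccl8, Ccl12 and H2-K2, an MHC class I pseudogene. For Ccl8, Ccl12 and Ciita the LPS-treated groups nevertheless did not overlap. A further 5 of the 19 were called higher in KO cells after LPS and not called untreated by limma.

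Those 5 were Pdgfb, Jdp2, Cebpb, Utp3 and Adap1. Pdgfb, a growth factor gene, was shut down by LPS, from 1896, 1793 and 1923 to 85.9, 111 and 110 normalized counts in WT libraries. In KO libraries it went from 2273, 2490 and 2432 to 214, 275 and 206, so the LPS-treated groups did not overlap. Its estimate was 0.81 (SE 0.16, adjusted p = 0.245 by limma and 0.00135 by DESeq2). Cebpb encodes a transcription factor of inflammatory macrophage genes, and LPS-treated libraries read 3848, 3907 and 3563 normalized counts in WT and 5075, 5318 and 6200 in KO. Its estimate was 0.70 (SE 0.16, adjusted p = 0.491 by limma and 0.0351 by DESeq2). Jdp2, whose product is a repressor that pairs with Jun proteins, had an estimate of 0.71 (SE 0.17, adjusted p = 0.498 by limma and 0.0238 by DESeq2).

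Of the 7 with a smaller response, Peak1, Trps1 and Ints6l were called lower in LPS-treated KO cells, and Acod1 and Lrrc4 higher in untreated KO cells. Gja1, which encodes the gap junction protein connexin 43, rose 32.1-fold in WT and 12.8-fold in KO cells. Its estimate was -1.33 (SE 0.29, adjusted p = 0.391 by limma and 0.00135 by DESeq2). Lrrc4 rose 4.83-fold in WT and 2.14-fold in KO cells, with an estimate of -1.17 (SE 0.22, adjusted p = 0.244 by limma and 0.00222 by DESeq2).

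**Figure D4:**
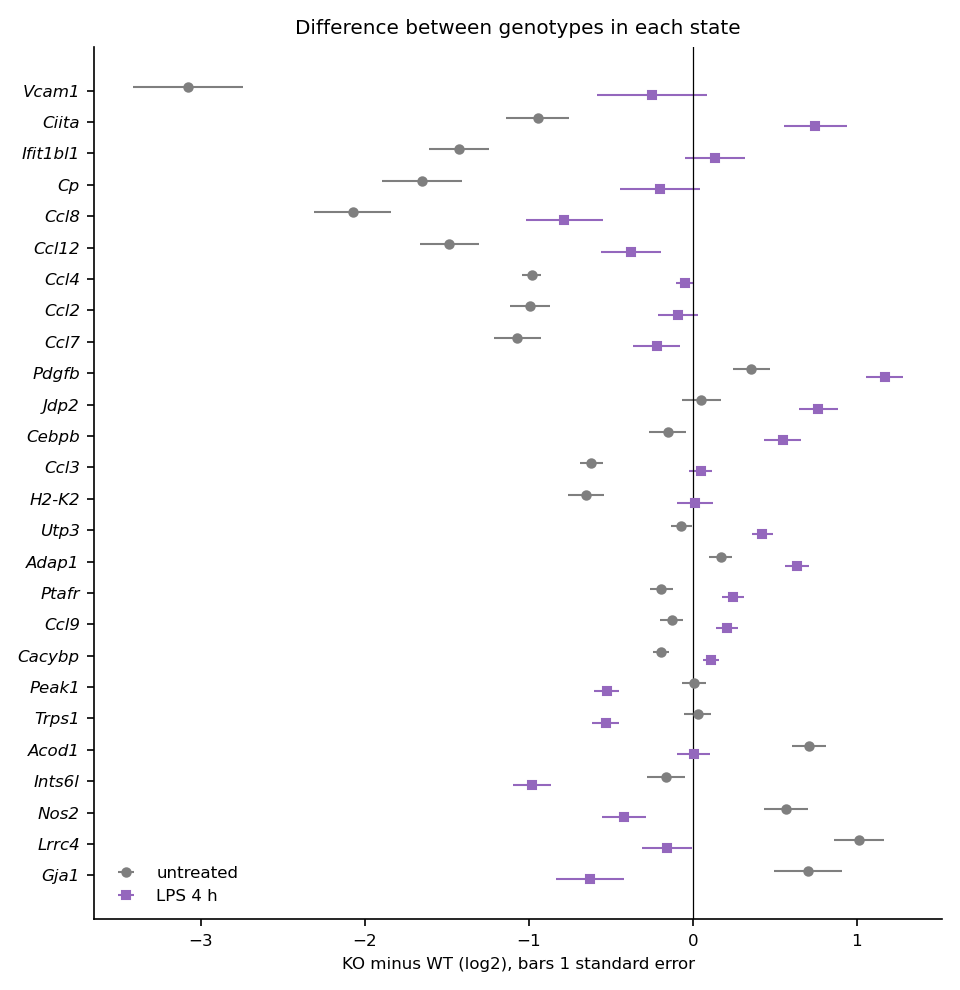
Difference between genotypes (KO minus WT, log2) in untreated cells (grey circles) and after LPS (purple squares) for the 26 genes called by at least 1 of 4 tests, ordered by interaction estimate, with bars of 1 standard error. For Vcam1 down to Ccl7 the grey points lie below 0, while for Pdgfb, Jdp2 and Cebpb the purple points lie above it.

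NF-kB genes had a median estimate near 0, and cytokine genes had estimates in both directions, many with wide intervals. Among 24 NF-kB subunits, targets and feedback genes, all 24 rose with LPS in both genotypes by limma (36.4% of all genes rose in WT and 37.1% in KO cells), the median estimate was 0.02, and the 95% interval lay within 1 log2 unit of 0 for 23. Nfkbia, the inhibitor IkB alpha, had an estimate of 0.29 (95% confidence interval -0.11 to 0.69), and Sod2 had -0.08 (-0.34 to 0.18). None of 19 cytokine genes passed after adjustment by limma. At an unadjusted p of 0.05 by limma, 4 passed with a higher and 2 with a lower response in KO cells. That is 31.6%, against 4.22% of all genes. Tnf read 421, 389 and 382 normalized counts in untreated WT and 317, 359 and 350 in untreated KO libraries, and 29469, 29064 and 29746 in LPS-treated WT and 28227, 31705 and 31116 in LPS-treated KO libraries. Its estimate was 0.26 (95% confidence interval 0.06 to 0.45, adjusted p = 0.999 by limma), so the KO response was at most 0.45 log2 units larger at that level. The cytokines Il1b and Il6 had estimates of 0.06 (-1.01 to 1.13) and -0.35 (-1.38 to 0.67). Il12b, a subunit of interleukin 12 and 23, averaged 2974 normalized counts in LPS-treated WT and 1548 in LPS-treated KO cells, with an estimate of -1.05 (-2.24 to 0.14). Inhba, which encodes the activin A subunit, had the highest estimate of the cytokines at 1.45 (0.40 to 2.49, adjusted p = 0.999 by limma).

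Among 8 CXC chemokine genes tested the median estimate was 0.28, with 5 above and 3 below 0. For 37.5% of the 8 every KO culture responded more than every WT culture, against 6.99% of all genes. For 12.5% every KO culture responded less, against 5.55%. Cxcl10, an interferon-induced attractant of T cells, averaged 182941 normalized counts in LPS-treated WT and 166891 in LPS-treated KO cells, with an estimate of -0.47 (95% confidence interval -0.84 to -0.10, adjusted p = 0.999 by limma). None passed after adjustment.

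Genes of the Ras, Rap and Ral family and their regulators, the signalling class of RasGEF1b, had a median estimate of -0.04 over 31 tested, 28 with a 95% interval within 1 log2 unit of 0 and none called by limma. Rap2a, Rap2b and Rap2c had estimates of -0.06, -0.06 and -0.09. Rasgef1a, a relative of Rasgef1b, averaged 26.0 and 28.4 normalized counts after LPS and had an estimate of 0.26 (95% confidence interval -0.59 to 1.12), and Rasgef1c had 8 reads in all. Among 28 immediate early and ERK feedback genes the median was 0.05. At an unadjusted p of 0.05 by limma, 4 passed with a higher and 3 with a lower response in KO cells. That is 25%, against 4.22% of all genes, and none passed after adjustment. Myc, a growth-promoting transcription factor that LPS lowered, read 46.4, 64.1 and 65.4 normalized counts in LPS-treated WT and 106, 94.1 and 117 in LPS-treated KO libraries, and its estimate was 0.84 (SE 0.20, adjusted p = 0.543 by limma). Among 23 myeloid transcription factors Mycl had the highest estimate at 1.19 (adjusted p = 0.648 by limma), with 291, 352 and 360 normalized counts in LPS-treated WT and 680, 799 and 630 in LPS-treated KO libraries.

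The medians of other groups were 0.02 for 32 cell cycle genes, 0.05 for 25 ribosomal protein genes, 0.03 for 27 genes of glycolysis and hypoxia and -0.13 for 20 genes of cAMP and CREB signalling, with no member called by limma. Estimates were above 0 for 24 of the 25 ribosomal protein genes, against 6708 of all 12711 genes. For 32% of the 25 every KO culture responded more than every WT culture, against 6.99% of all genes. Of the 20 cAMP and CREB genes 14 had estimates below 0, against 6003 of all 12711 genes. For 25% of the 20 every KO culture responded less than every WT culture, against 5.55% of all genes. For 15% every KO culture responded more, against 6.99%. Cholesterol synthesis genes differed between genotypes. Of 24 tested, 7 were called higher in untreated KO cells, where 0.433% of all genes were, and 2 after LPS, where 0.574% were. The median difference was 0.42 untreated and 0.35 after LPS. The median interaction was -0.06, and the 95% interval lay within 1 log2 unit of 0 for all 24, a bound wider than the genotype difference itself.

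**Figure D5:**
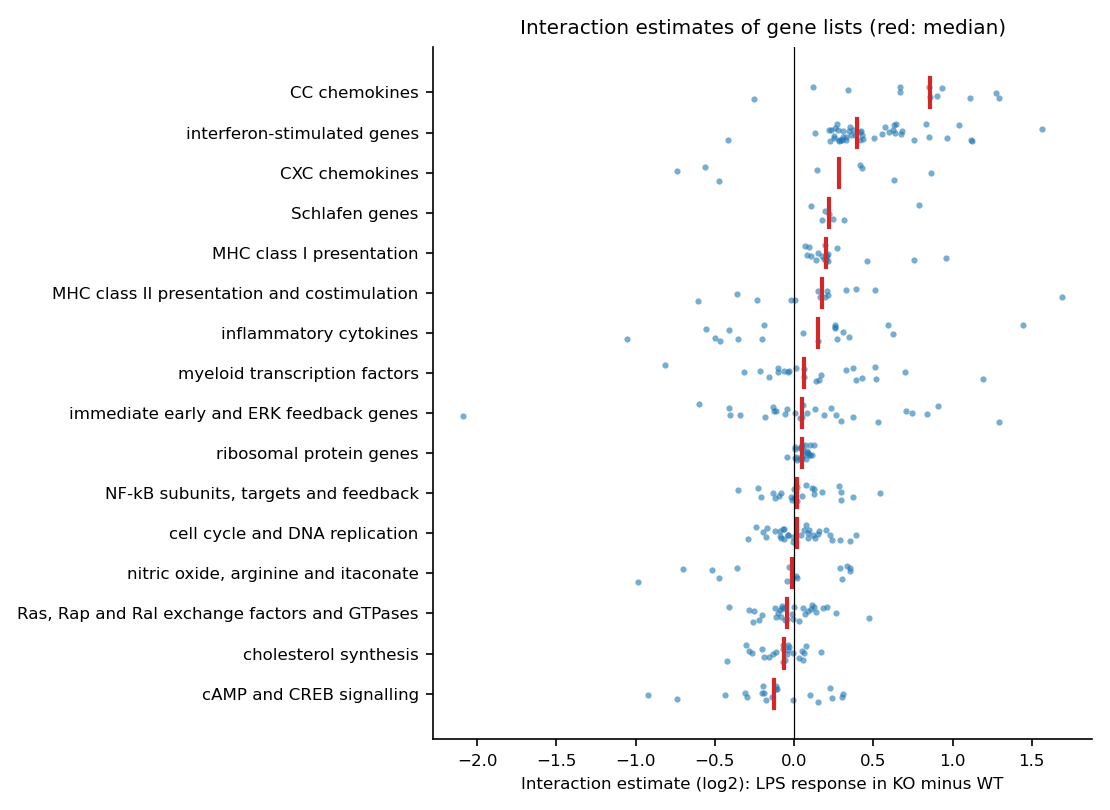
Interaction estimates (log2, LPS response in KO minus WT) of the tested members of 16 gene lists, one point per gene, with a red bar at each median. The median is 0.85 for CC chemokines and 0.40 for interferon-stimulated genes and lies between -0.13 and 0.28 for the others.

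Some genes differed between genotypes in both states. Akr1e1, an aldo-keto reductase gene, read at most 2.78 normalized counts in every WT library and 362 to 411 in KO libraries, whether or not LPS was given. With 0 to 2 reads in each WT library, its fitted response in WT cells depends on the pseudocount and is not given. Serpinb6b, a protease inhibitor gene, was 1.20 higher in KO cells in both states, with an estimate of -0.00 (-0.46 to 0.46). Genotype differences were called in both states for 36 genes, 25 higher and 11 lower in KO cells, each with the same sign in both states, and their median interaction was 0.09 in size. Choosing genes called in both states favours small interactions, and the 95% interval lay within 1 log2 unit of 0 for 26 of the 36.

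The precision of the estimates set what could be seen. Their median standard error was 0.16, and their median size was 0.11. The 95% interval lay within 1 log2 unit of 0 for 14.9% of genes with a mean of 10 to 50 normalized counts, 88.0% of those from 50 to 500 and 97.0% of those at 500 or more. LPS changed 9290 genes in WT cells (73.1%) and 9411 in KO cells (74%) at an adjusted p below 0.05 by limma, with 36.7% of genes falling in WT and 36.9% in KO cells, and 4315 of the 4317 genes with a WT response of 2-fold or more had the same direction in KO cells. At a mean of 500 or more, 21 genes had an estimate of at least 1 in size, 13 positive and 8 negative. Of the 8 negative ones, 6 had a level in the untreated KO replicate 2 library at least 2 times that of the other untreated KO libraries, for example CT010467.1, with 878983 normalized counts there and 6887 to 24228 in the other libraries. The remaining 2 were Il12b and Adamts4.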

How the data were processed

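RNA of 12 BMDM libraries was sequenced after poly(A) selection. Per the submitters' processing notes, the tools were bcl2fastq 2.17, Trimmomatic 0.39, STAR 2.7.4a on GRCm38, featureCounts (Subread 2.0.1) and DESeq2 1.32.0, and the deposited table holds counts divided by size factors by the authors, a signal in normalized counts per gene. Strand use in counting is not given in the sources used here. Dividing by the lowest value above 0 in each library gave whole reads for 100% of values. Genes with a mean of at least 10 were tested with limma 3.58.1 (R 4.3.3) on log2(value + 1) over the 4 groups with a trended variance, adjusted by Benjamini-Hochberg. edgeR 4.0.16 and DESeq2 1.42.0 used the recovered reads. Fold changes of low genes are understated on this scale.

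Replicate numbers were taken to pair untreated and LPS-treated libraries within a genotype. Their deviations from the group means correlated at 0.33, 0.19 and 0.24 in WT and 0.29, 0.28 and 0.17 in KO cells, and at 0.11, 0.106 and 0.183 in WT and 0.243, 0.13 and 0.0965 in KO cells without genes on X and Y. WT replicate 1 and KO replicate 2 were high in Xist in both states. The study's methods treat samples as unpaired, so the main fit has no block. The labels do not say which mouse gave each replicate, and the study describes independent cultures as biological replicates. The rule named Ccl4 as called, the 2 most abundant members of each list and genes the study names. Other list members and genes called by another test were chosen after their values were seen. Members, lists and tests were chosen with earlier results of these data known. The table was matched to GENCODE M21 for positions. Scripts were tested on simulated data.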

Additional observations from a re-analysis of the deposited data

Results flagged for a closer look

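By limma without pairing and by edgeR, Ccl4 alone was called for a difference in LPS response between genotypes. Its interaction estimate was 0.93 on the log2 scale. The paired limma fit called 6 genes and DESeq2 24, Ccl4 among both. Among the named genes, Gm15446 had lower normalized counts after LPS in all 3 WT cultures and higher ones in all 3 KO cultures, with an interaction estimate of 1.06 (adjusted p = 0.999 by limma). KO libraries held 0 to 7 reads of Gm15446 against 49 to 152 in WT libraries, and in reads the KO cultures went from 6 to 4, 0 to 1 and 7 to 7. Neither LPS response passed by limma (adjusted p = 0.636 in WT and 0.306 in KO cells), and the opposition of the directions itself was not tested. Groups of 3 libraries are too small for a search for outlying samples.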

How the results depend on the processing

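Ccl4 was called in 33 of 34 other settings, and the exception was the added requirement of a 2-fold difference, under which 0 genes were called. Its estimate ranged from 0.87 to 1.13, and from 0.89 to 0.98 with 1 library left out. Pseudocounts of 0.5 and 5, other filters, scalings and variance models, an adjusted p under 0.1 and edgeR each called Ccl4 alone. With the replicate block (cultures paired) 6 genes were called, 5 higher and 1 lower, all 6 changed by LPS in both genotypes, and 5 list members were called. DESeq2 called 24, 18 higher and 6 lower. By the contrasts of DESeq2 itself, 14 of them differed between genotypes when untreated and 13 after LPS. With LPS, 23 changed in WT and 24 in KO cells. Chosen after seeing the data, the replicate block without KO replicate 2 called 8 genes, 4 in each direction, and 5 list members, and the replicate block with edgeR called 4, all higher. Leaving out 1 library, or both libraries of a culture, gave 1 to 4 genes, 1 to 3 of them higher and 0 to 1 lower, with 1 to 3 list members, 1 to 3 genes that differed untreated, 0 to 1 after LPS and 1 to 4 changed by LPS. Ciita was added without WT untreated replicate 2, Ifit1bl1 and Gja1 without KO untreated replicate 1, Ccl3 and Lpar5 without KO LPS replicate 1, Nos2 and Cp without WT replicate 3 in both states, and Ccl3, Ifit1bl1 and Lpar5 without KO replicate 1 in both states. The cause of these changes was not tested. In 324 of 4425 refits of the 131 named genes not called, the sign differed.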
